A study of Mus musculus with 42 samples.

Results

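The collagen and matrix genes described here are 39 of the 56691 genes in the deposited tables. They were chosen by name, as genes that encode collagens, other proteins of the extracellular matrix, and the enzymes and secreted signals that remodel it. The choice was made with earlier results of these data known, so the counts below are not those of a set picked blind. They were read in 4 groups: 5 fibrillar collagens, 9 other genes of the interstitial matrix, 12 genes of basement membranes, and 13 genes of remodelling and signalling. RNA came from whole kidneys of 42 male wild-type C57BL/6 mice, kept in 12 h of light and 12 h of dark and put on their diets at 6 weeks of age. For 14 weeks they were fed chow (the control diet) or a high-fat diet that held 3% EpSA, an additive that the labels give only by this abbreviation. The kidneys were taken at zeitgeber time (ZT, hours from lights on) 1, 5, 9, 13, 17, 21 and 25. The tables give 1 value per gene for each diet and time, read as the mean of 3 mice and called a pool below, so there are 14 pools, 7 per diet. A group on the high-fat diet without EpSA is named in the protocols and was not analysed here, so effects of fat and of EpSA cannot be told apart.

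The extracellular matrix of the kidney has 2 main forms. Basement membranes are thin sheets of type IV collagen, laminin, nidogen and perlecan under every epithelium and endothelium, and the one in the glomerulus is part of the filter. The interstitial matrix between tubules and vessels is a looser mesh of fibrils of type I, III and V collagen, type VI collagen filaments, fibronectin and small proteoglycans, made mostly by fibroblasts and pericytes. Transforming growth factor beta drives expression of many of these genes, lysyl oxidases cross-link the fibrils, and metalloproteinases and their inhibitors (TIMPs) set how fast they are broken down. Excess interstitial matrix is renal fibrosis.

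Levels are in FPKM, fragments scaled for transcript length and library size, and differences are in log2(FPKM + 1). Sums of FPKM per pool ran from 400590 to 435621, and the number of reads is unknown. Of the 39 genes, 36 had a mean of at least 1 FPKM and were tested among 13344 genes. The others were Fbn1 (fibrillin, of elastic microfibrils) at a mean of 0.962 FPKM, Postn (periostin, a matrix protein of injured tissue) at 0.788 FPKM and Mmp2 (gelatinase A) at 0.562 FPKM. One pool stood apart by tissue: 5 adrenal cortex genes summed to 108.2 FPKM in EpSA ZT 9 and to between 1.08 and 1.66 FPKM in the other 13 pools. A list of 13 macrophage and immune genes summed to between 493.0 and 1105 FPKM in the chow pools of ZT 1, 5, 9 and 13, and to between 201.6 and 268.5 FPKM in the other 10 pools. Cd74 and H2-Ab1 made up most of the highest sum, at 796.4 and 175.0 FPKM in chow ZT 13, against 99.0 and 24.2 in chow ZT 17. C1qa of the same list varied less, at 24.2 and 14.6 FPKM in these pools. The sum of 8 fat tissue genes varied from 64.0 FPKM (EpSA ZT 13) to 327.1 (EpSA ZT 5), and in chow from 116.2 (ZT 17) to 276.8 (ZT 5). Marker genes of kidney cells were present: 7 proximal tubule genes summed to at least 2064 FPKM and 8 podocyte genes to at least 62.2 FPKM in every pool. In chow the proximal tubule sum was lowest at ZT 1, at 2064 FPKM, and highest at ZT 17, at 2599. The sum of 5 thick ascending limb genes was 1419 FPKM in chow ZT 1. It was between 1018 and 1168 FPKM in the other chow pools and between 707.7 and 1091 in EpSA. In RNA of whole tissue, fewer cells of a type and less RNA per cell cannot be told apart.

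A pair of sequences next to genes described further on are shown first, and their part in those results was not tested. Srpx2 is the gene of the set whose daily curves differed most between the diets. The 250 bases before its RefSeq start (chrX:133908175-133908424, GRCm38.p6, plus strand) overlap no annotated exon, and an E-box, the letters that CLOCK and BMAL1 bind, stands in capitals.
Srpx2 upstream: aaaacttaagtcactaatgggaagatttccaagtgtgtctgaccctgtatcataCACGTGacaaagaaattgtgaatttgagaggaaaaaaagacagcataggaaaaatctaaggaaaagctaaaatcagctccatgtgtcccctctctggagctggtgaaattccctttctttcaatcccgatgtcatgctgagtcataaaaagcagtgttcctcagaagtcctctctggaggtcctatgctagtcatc
Col4a3 and Col4a4 encode partner chains of the collagen of the glomerular basement membrane, and are read in opposite directions from starts 72 bases apart on chromosome 1. The 71 bases between them (chr1:82586850-82586920, GRCm38.p6, minus strand, read from the start of Col4a3 towards that of Col4a4) lie outside annotated exons, and 69.0% of them are G or C.
Between Col4a3 and Col4a4: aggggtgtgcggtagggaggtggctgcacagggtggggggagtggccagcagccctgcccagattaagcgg

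The motif search covered the 250 bases before 30 RefSeq starts of 27 of the 39 genes, on both strands. The E-box CACGTG was found before Srpx2 only, beginning 196 bases ahead of the start, and 6.02% of 32851 windows over all genes hold it. The D-box TTANGTAA was found before Postn, against 2.06% of all windows. The nuclear receptor motif AGGTCA was found before Col4a4 and Postn, against 14.0%, and the SMAD palindrome GTCTAGAC before none, against 0.167%. These are matches of letters, with no measurement of binding.

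In chow, the medians of all 4 groups were highest at ZT 1 or ZT 5, in the light phase, and lowest at ZT 17 or ZT 21, in the dark phase. Of the 36 tested, 33 had their highest pool at ZT 1 or ZT 5, as had 40.3% of the 13344 genes, and 30 had their lowest at ZT 17 or ZT 21, as had 51.8%. The median gene of the set stood 0.16 above its own mean over all 14 pools at ZT 1 and 0.25 above it at ZT 5, and at ZT 21 it stood at -0.20. The chow medians of all genes tested stayed between -0.06 and 0.05. The EpSA pools had another profile: over ZT 1, 5, 9 and 13 the median was -0.14, 0.15, -0.11 and -0.13, and then it was between 0.10 and 0.14 from ZT 17 to ZT 25. In EpSA 15 genes had their highest pool at ZT 1 or ZT 5, against 32.9% of all genes. All 15 were at ZT 5, against 13% of all genes, and 0 at ZT 1, against 19.9%. A highest pool at ZT 5 was thus frequent in both diets, with 23 genes of the set in chow, against 21% of all. In EpSA 2 genes had their lowest pool at ZT 17 or ZT 21, against 24.1%.

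**Figure D1:**
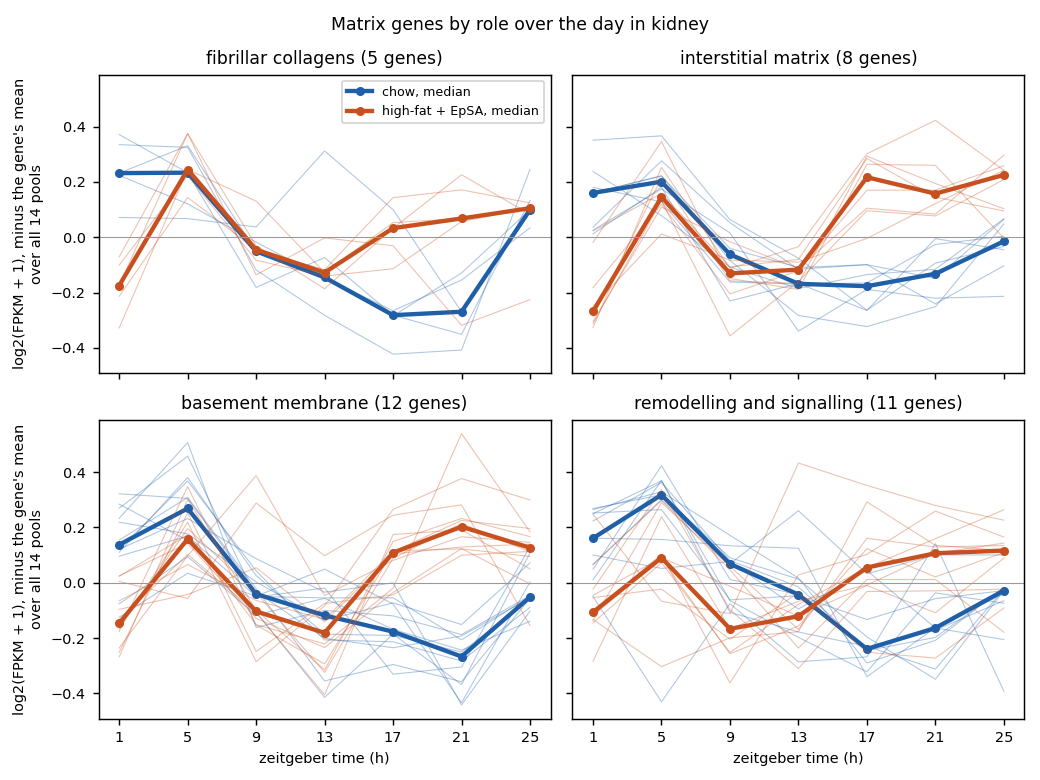
Log2(FPKM + 1) of the tested genes of each group against zeitgeber time in hours, with each gene's mean over all 14 pools subtracted. Thin lines are genes and thick lines their median, blue for chow and orange for the high-fat diet with EpSA. In all 4 groups the chow median lies above the EpSA median at ZT 1 and below it at ZT 17 and ZT 21.

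A 24 h cosine was fitted to the 7 pools of each diet with limma, and its amplitude is the log2 distance from the middle of the curve to its peak. The error in these fits is the scatter of the 7 means around the curve, not the spread between mice. No gene of the set passed a Benjamini-Hochberg adjusted p of 0.05 in chow, where 12 genes or 0.0899% of all did, and the lowest adjusted p was 0.17, of Dcn. At an unadjusted p under 0.05 there were 23 of 36 in chow, against 10.3% of all genes. They were 4 of 5 fibrillar collagens, 5 of 8 interstitial genes, 7 of 12 basement membrane genes and 7 of 11 remodelling genes. Their fitted peaks lay between ZT 2.1 and ZT 6.6. That count rests in part on single times: it was 7 of 35 tested without ZT 5, when 6.21% of all genes passed, and between 16 and 23 without any other single time. In EpSA none passed, where 6 genes or 0.045% of all did, and 2 genes, Srpx2 and Ccn2, had an unadjusted p under 0.05, against 8.72% of all. Without ZT 1 the EpSA count was 11, against 13.0% of all genes. Without ZT 5 it was 4, against 10.4%, and without ZT 17 it was 0, against 7.83%.

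**Figure D2:**
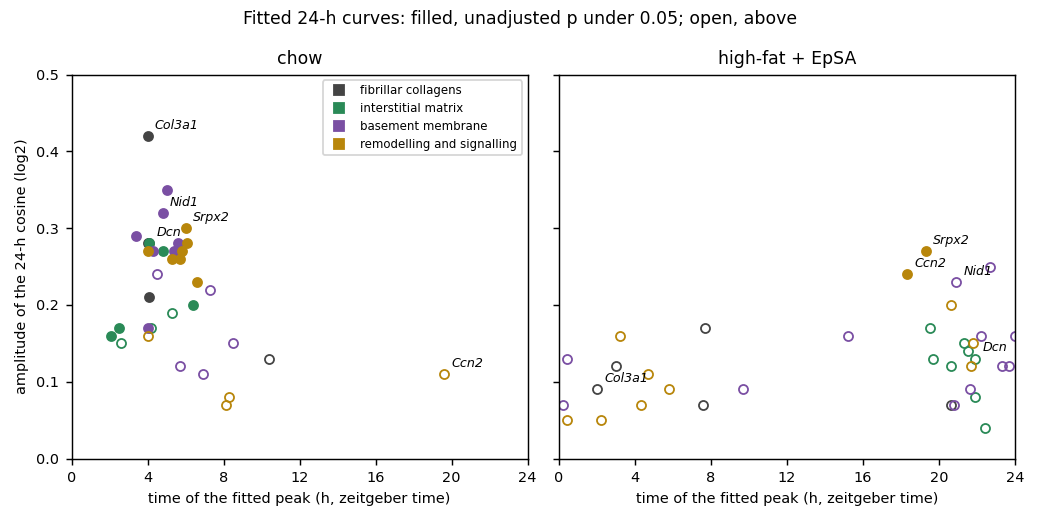
Amplitude of the fitted 24 h cosine (log2) against the time of its peak (h) for 36 genes in chow (left) and in the high-fat diet with EpSA (right), coloured by group, filled where the unadjusted p was under 0.05. The 23 filled points in chow lie between ZT 2.1 and ZT 6.6, and the 2 in EpSA are Srpx2 and Ccn2.

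The rhythm statistics in the authors' deposited table gave smaller counts. Its meta2d p-value was under 0.05 for 16 of the 36 genes in chow, against 11.8% of all genes tested, and for 0 in EpSA, against 9.82%. The lowest meta2d q-value of the set in the authors' deposited table was 0.233, of Bgn in chow. By its JTK p-value, 2 genes of the set were under 0.05 in chow, against 1.49% of all genes, and 0 in EpSA, against 1.12%. That statistic takes few values at 7 times, and 12 more genes of the set were listed at a JTK p-value of 0.05 itself in chow, and 1 in EpSA.

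The difference of the curves between the diets was tested as an interaction of diet with the cosine and sine in 1 limma fit over the 14 pools. No gene of the whole table passed the adjusted threshold (0% of all), and 588 genes, 4.41%, had an unadjusted p under 0.05. Of the set, Srpx2 and Nid1 did. The lowest adjusted p of the set was 0.82. The count of the set was 12 without ZT 1, against 8.63% of all genes, and 5 without ZT 5, against 4.03%. It was 4 without ZT 17, against 7.49%, 4 without ZT 25, against 4.47%, and 1 without ZT 21, against 2.6%.

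Srpx2 encodes a secreted sushi-repeat protein that binds the urokinase receptor. Its 7 chow pools, in order of time, held 2.61, 2.78, 2.39, 2.04, 1.46, 1.60 and 1.97 FPKM. The 7 EpSA pools held 1.74, 1.44, 1.62, 1.66, 2.68, 2.30 and 2.26 FPKM. The first 4 EpSA pools were thus all below the chow pools of the same time, and the last 3 above them. The fitted peak was at ZT 6.0 ± 0.7 h (SE) in chow, with an amplitude of 0.30 ± 0.06, and at ZT 19.3 ± 0.9 h in EpSA, with an amplitude of 0.27 ± 0.07. The interaction had an unadjusted p of 0.00046 and, by limma with Benjamini-Hochberg adjustment, an adjusted p of 0.82. Over 12 alternatives that adjusted p ran from 0.563 to 0.997. Its mean over the 7 times differed by -0.08 ± 0.14 between the diets.

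Nid1, which encodes nidogen, the protein that links laminin to type IV collagen, had the other interaction p under 0.05, at 0.018 unadjusted and 0.82 adjusted. Its chow pools ran from 5.73 FPKM (ZT 21) to 9.68 (ZT 5) with a median of 7.29, and its EpSA pools from 6.08 (ZT 9) to 10.2 (ZT 21) with a median of 9.03. The ranges overlapped. The pool that was lowest in chow, ZT 21, was the highest in EpSA. Its fitted amplitude in chow was 0.32 ± 0.07 with a peak at ZT 4.8, and in EpSA 0.23 ± 0.11 with a peak at ZT 20.9.

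**Figure D3:**
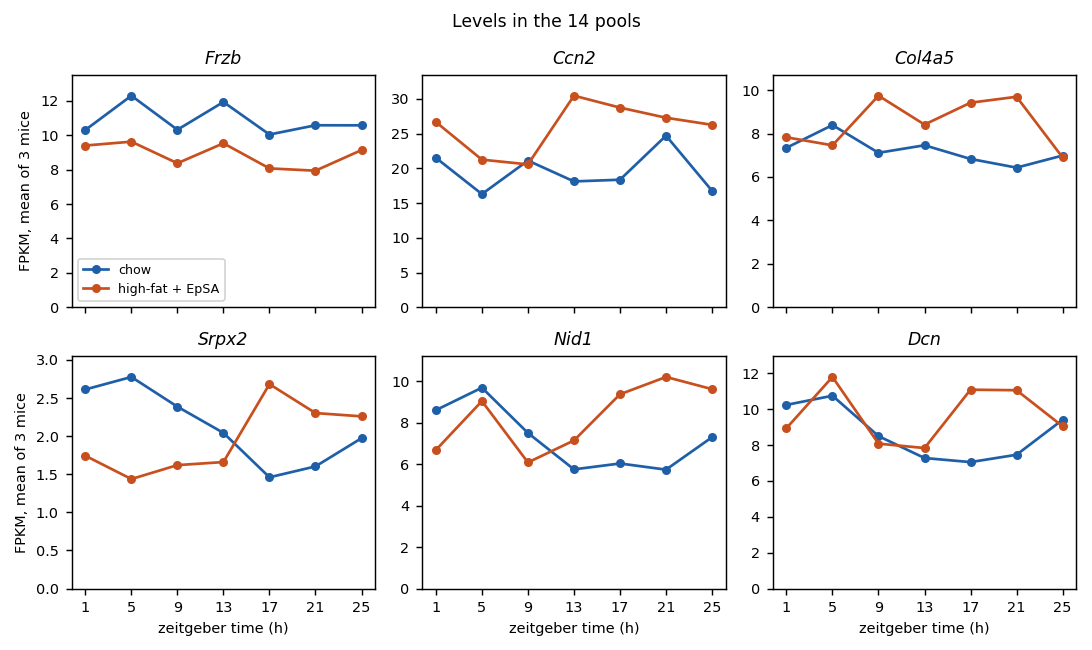
FPKM (mean of 3 mice per pool, no error bar because values per mouse are not in these tables) of 6 genes against zeitgeber time in hours, blue for chow and orange for the high-fat diet with EpSA, each axis starting at 0. Frzb in EpSA lies below chow at all 7 times, and the Srpx2 lines cross between ZT 13 and ZT 17.

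Averaged over the 7 times, 1 gene of the set passed the diet test, and it was of the remodelling and signalling group. The limma fit with time as a factor called 21 genes higher in EpSA and 10 lower, 0.157% and 0.0749% of 13344. The set had 0 of the first and 1 of the second, Frzb. At an unadjusted p under 0.05, Ccn2 and Col4a5 were among the 8.58% higher and Frzb among the 10.6% lower. The 3 of 36 compare with 19.2% of all genes in either direction, and the count without ZT 1 was 7, against 19.1%. The median difference was 0.04 over the 36 genes and -0.01 over all genes tested, and 23 of the 36 were above 0, against 46.1% of all genes. That number was 30 without ZT 1, 17 without ZT 17 and 14 without ZT 21, against 48.2%, 43.9% and 41.7% of all genes. The median of the set was 0.04 for fibrillar collagens, 0.06 for interstitial genes, 0.05 for basement membrane genes and -0.01 for remodelling genes, and over the set it was 0.104 without ZT 1, 0.017 without ZT 25, -0.001 without ZT 17 and -0.014 without ZT 21. The fibrillar median ran from -0.020 without ZT 21 to 0.142 without ZT 1.

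**Figure D4:**
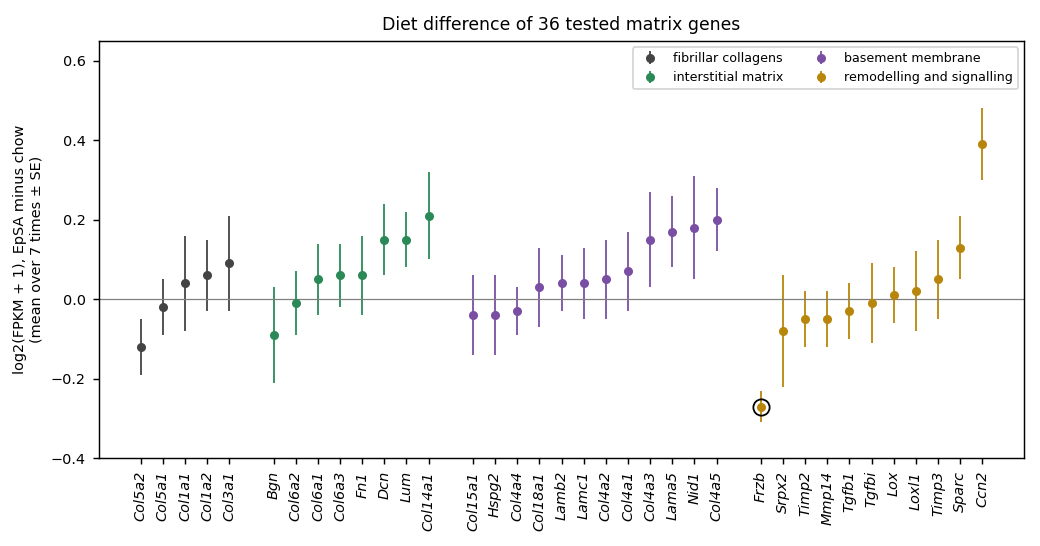
Difference in log2(FPKM + 1), EpSA minus chow, of 36 genes sorted within their groups, as the mean over 7 times with its SE from the limma fit. The circled point is Frzb, the gene with an adjusted p under 0.05, and Ccn2 has the highest value.

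Frzb encodes a secreted antagonist of WNT signals. Its chow level ranged from 10.04 FPKM (ZT 17) to 12.3 (ZT 5), with a median of 10.6, and from 7.94 (ZT 21) to 9.63 (ZT 5) in EpSA, with a median of 9.14. The ranges did not overlap, as was so for 1 gene of the set and for 0.892% of all genes. EpSA was lower at 7 of 7 times, by 0.27 ± 0.04 on the log2 scale, with a limma adjusted p of 0.048. The call was narrow. It was lost in every leave-one-time-out fit, with adjusted p between 0.0593 and 0.149, and the range over all 13 alternatives was 0.0348 to 0.166. The difference itself stayed between -0.29 and -0.25.

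Ccn2, the connective tissue growth factor and a classical target of transforming growth factor beta and YAP, was the member with the highest diet difference. Chow pools ran from 16.3 FPKM (ZT 5) to 24.7 (ZT 21) with a median of 18.4, and EpSA pools from 20.6 (ZT 9) to 30.5 (ZT 13) with a median of 26.7. EpSA was above chow at 6 of 7 times, and the exception was ZT 9, at 20.6 against 21.1 FPKM. The difference was 0.39 ± 0.09 with an unadjusted p of 0.0018, and its limma adjusted p of 0.086 missed the threshold. Over 13 alternatives the difference lay between 0.33 and 0.46 and the adjusted p between 0.0659 and 0.241. In EpSA its fitted peak was at ZT 18.3 ± 1.0 h, with an amplitude of 0.24 ± 0.07. It did not share the early light peak of the collagens: its chow pool at ZT 5 was the lowest.

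Transforming growth factor beta itself, Tgfb1, was between 1.92 FPKM (ZT 21) and 3.64 (ZT 5) in chow and between 2.42 and 2.96 in EpSA, with a diet difference of -0.03 ± 0.07. The protein that it induces and that is named for it, Tgfbi, differed by -0.01 ± 0.10. Both were highest in chow at ZT 1 or ZT 5. Of 25 further genes of that pathway (ligands, latency proteins, receptors, SMADs and their targets), 20 were tested, none passed, and 1 had an unadjusted p under 0.05, against 19.2% of all genes. It was the co-receptor gene Tgfbr3, at -0.16 ± 0.06 (limma adjusted p 0.23). Ltbp4, of a latency protein, differed by 0.08 ± 0.06 and Skil, of a SMAD repressor, by 0.08 ± 0.07.

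No fibrillar collagen gene passed the diet test or a rhythm test at the adjusted threshold, and 4 of the 5 had an unadjusted rhythm p under 0.05 in chow. Type I collagen, the main fibril protein of scars, has 2 chains: Col1a1 was between 1.91 and 3.80 FPKM in chow and 1.96 and 3.40 in EpSA, and Col1a2 between 3.72 and 5.63 and between 3.90 and 5.39. Their diet differences were 0.04 ± 0.12 and 0.06 ± 0.09. Both were highest in chow at ZT 1 and lowest in EpSA at ZT 1. Col3a1, of the type III collagen of young fibrils, had the largest fitted amplitude of the set in chow, 0.42 ± 0.07, with a peak at ZT 4.0 (unadjusted p 0.0017, limma adjusted p 0.20). Its chow pools of ZT 1, 5, 17 and 21 held 4.95, 4.91, 2.52 and 2.56 FPKM. In EpSA the same 4 times read 3.18, 5.12, 3.83 and 4.52 FPKM, and the amplitude was 0.09 ± 0.09. The difference of its curves between diets had an unadjusted p of 0.08 and a limma adjusted p of 0.82. Type V collagen starts the fibrils: Col5a1 differed by -0.02 ± 0.07 between diets and Col5a2 by -0.12 ± 0.07, the lowest value of the group. Col5a2 was the fibrillar gene with its chow peak elsewhere, at 3.02 FPKM at ZT 13, and was below chow in EpSA at 6 of 7 times, with ranges of 1.69 to 3.02 and 1.60 to 3.20 FPKM.

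Among interstitial genes, Bgn (biglycan, a small proteoglycan) had the highest level, with a mean of 26.0 FPKM over all pools. In chow it ran from 21.2 FPKM (ZT 17) to 33.4 (ZT 5) with a median of 25.1, and in EpSA from 19.8 (ZT 9) to 29.8 (ZT 25) with a median of 27.2. At ZT 1 it was at 33.0 FPKM in chow and 20.5 in EpSA. Dcn (decorin, which coats collagen fibrils) had the lowest rhythm p of the set in chow, 0.0012, with an amplitude of 0.28 ± 0.05 and a peak at ZT 4.1 (limma adjusted p 0.17). Its chow level was 10.8 FPKM in the ZT 5 pool and 7.05 in the ZT 17 pool, and in EpSA these pools held 11.8 and 11.1 FPKM. Lum (lumican), which lies next to Dcn on chromosome 10, was between 0.907 and 1.60 FPKM in chow and 1.13 and 1.79 in EpSA, with a diet difference of 0.15 ± 0.07.

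Col14a1, of a collagen that sits on the surface of fibrils, had the largest diet difference of the interstitial genes, 0.21 ± 0.11 (limma adjusted p 0.34). Chow pools ran from 4.81 to 7.30 FPKM with a median of 5.45, and EpSA pools from 4.86 to 8.85 with a median of 7.69. The ranges overlapped, and EpSA was higher at 5 of 7 times. The type VI collagen genes Col6a1, Col6a2 and Col6a3, of filaments around cells, differed by 0.05 ± 0.09, -0.01 ± 0.08 and 0.06 ± 0.08. All were highest at ZT 25 in EpSA. Fn1 (fibronectin, a scaffold for matrix assembly) differed by 0.06 ± 0.10 and was between 2.19 and 3.57 FPKM in chow and 2.09 and 3.62 in EpSA. Fbn1, which was not tested, was between 0.597 and 1.36 FPKM in chow and 0.767 and 1.25 in EpSA.

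The basement membrane genes held the highest levels among the collagens. Col4a1 and Col4a2, of the collagen common to all basement membranes, and Col4a3, Col4a4 and Col4a5, of the mature glomerular form, are the sets of partner chains. Col4a1 was between 21.7 and 34.6 FPKM in chow and 21.5 and 34.1 in EpSA, with a diet difference of 0.07 ± 0.10, and Col4a2 differed by 0.05 ± 0.10. These genes also start head to head on chromosome 8, with starts 21 bases apart, but unlike Col4a3 and Col4a4 they overlap there. The ratio of Col4a1 to Col4a2 in FPKM stayed between 1.22 and 1.36 over the 14 pools. The ratio of Col4a3 to Col4a4, whose shared start region is shown above, ranged more widely, from 0.925 in chow at ZT 13 to 1.52 in EpSA at ZT 21.

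Col4a3 had the highest mean of the collagens, 32.6 FPKM. In chow it ran from 23.8 FPKM (ZT 13) to 39.2 (ZT 1) with a median of 29.7, and in EpSA from 27.4 (ZT 13) to 47.0 (ZT 21) with a median of 32.6. The EpSA pool of ZT 21 was above all others and set against 24.6 FPKM in chow it was the largest single-time difference of the set, 0.91. Col4a4 stood at 25.4 FPKM in that chow pool and at 31.0 in that EpSA pool. Averaged over times, Col4a3 differed by 0.15 ± 0.12 and Col4a4 by -0.03 ± 0.06. Col4a5, on the X chromosome, had the largest diet difference of the group, 0.20 ± 0.08, with an unadjusted p of 0.036 and a limma adjusted p of 0.23. Its chow pools ran from 6.43 to 8.39 FPKM with a median of 7.11, and its EpSA pools from 6.90 to 9.74 with a median of 8.41. It was higher in EpSA at 5 of 7 times, and the ranges overlapped. Its highest EpSA pool was ZT 9, the pool that held adrenal genes, and without ZT 9 its difference was 0.17 with an unadjusted p of 0.096. The unadjusted p was also above 0.05 without ZT 13, ZT 17 or ZT 21. Podocyte markers differed in the same direction: 8 of 8 were above 0, 6 of them at an unadjusted p under 0.05 against 8.58% of all genes, none passed the adjusted threshold, and their median was 0.19. Their part in the differences of Col4a3 and Col4a5 was not tested.

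The laminin genes of the glomerular basement membrane, Lama5, Lamb2 and Lamc1, differed by 0.17 ± 0.09, 0.04 ± 0.07 and 0.04 ± 0.09 between diets. Lama5 was highest in the EpSA pool of ZT 9, at 16.1 FPKM against 11.6 in chow, again the pool with adrenal genes. Without ZT 9 its difference remained above 0, within a range of 0.10 to 0.22 over 13 alternatives. Lama5, Lamb2 and Lamc1 had unadjusted rhythm p-values above 0.05 in both diets. Hspg2 (perlecan, a heparan sulphate proteoglycan) differed by -0.04 ± 0.10, and at ZT 5 it was at 7.44 FPKM in chow and 5.38 in EpSA. Col15a1 and Col18a1, collagens that bind basement membranes to the tissue around them, differed by -0.04 ± 0.10 and 0.03 ± 0.10. Their chow amplitudes were 0.35 ± 0.08 and 0.27 ± 0.07 and their EpSA amplitudes 0.07 ± 0.09 and 0.12 ± 0.09. The difference of these curves between diets had an unadjusted limma p of 0.1 and 0.21, and an adjusted p of 0.82 for both.

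Of the remodelling genes, Timp3 (a matrix-bound inhibitor of metalloproteinases) had the highest level of the set. It was between 97.3 and 120.5 FPKM in chow with a median of 116, and between 87.2 and 134.6 in EpSA with a median of 120.7, and its diet difference was 0.05 ± 0.10. Timp2 differed by -0.05 ± 0.07. Mmp14 (a membrane metalloproteinase that activates gelatinase A) differed by -0.05 ± 0.07, with a chow amplitude of 0.26 ± 0.07 and a peak at ZT 5.7. Lox and Loxl1, of the enzymes that cross-link collagen and elastin, differed by 0.01 ± 0.07 and 0.02 ± 0.10, and both were highest at ZT 5 in chow. Sparc (osteonectin, which binds collagen as it is secreted) held 46.3 FPKM in the ZT 5 and 28.5 in the ZT 21 pool of chow, and at 43.7 and 39.01 in EpSA, with a diet difference of 0.13 ± 0.08. Postn and Mmp2, which were not tested, stayed at or below 0.99 FPKM and 0.90 FPKM in every pool.

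The diets were then set side by side at each time. Each such comparison is 1 pool against 1 pool, with no replicate check, and a step of at least 0.25 on the log2 scale was counted. At ZT 1, 22 of the 36 genes were lower in EpSA and 1 was higher, against 13.2% and 7.61% of all genes, and the median of the set was -0.32. Col1a1 was at 3.80 FPKM in chow and 1.96 in EpSA there, and Col6a1 at 4.75 and 2.95. At ZT 5 the counts were 4 lower and 2 higher, against 7.85% and 6.3%. At ZT 9 they were 6 lower and 3 higher, against 10.6% and 8.39%, and at ZT 13 they were 4 lower and 3 higher, against 15.2% and 7.19%. Timp3 had the largest step at ZT 9, at 118.5 FPKM in chow and 87.2 in EpSA, and Ccn2 at ZT 13, at 18.1 and 30.5 FPKM. The daytime and early night pools after ZT 1 thus had fewer steps in the set than ZT 1. By sign alone, 12, 10 and 16 of the 36 genes were higher in EpSA at ZT 5, ZT 9 and ZT 13. The shares over all genes were 40.4%, 43.4% and 37.9%. At ZT 9 the median was -0.08 over the set and -0.19 over the remodelling genes.

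At ZT 17 and ZT 21, in the dark phase, the direction was the opposite. In the first of these, 23 genes were higher in EpSA and 1 was lower, against 11.6% and 5.4% of all genes, with a median of 0.33. At ZT 21, 23 were again higher and 1 lower, against 25.3% and 16.7%, with a median of 0.34. The ZT 21 comparison thus had many steps over all genes, and not only in the set. At ZT 25 there were 7 higher and 1 lower, against 9.02% and 8.13%, with a median of 0.14. ZT 25 is the clock hour of ZT 1, a day later, and the set did not return to its ZT 1 values. In chow 10 genes were at least 0.25 lower at ZT 25 than at ZT 1 and 0 higher, against 12.1% and 6.61% of all genes. In EpSA 19 were higher and 0 lower, against 10.9% and 9.48%. The median change from ZT 1 to ZT 25 was -0.18 in chow and 0.26 in EpSA. With 1 pool a time, a change over days and a difference between the mice of these pools cannot be told apart.

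Markers of the cells that make matrix also varied between pools, some with the matrix genes and some apart from them. A list of 13 fibroblast genes, 8 of them above the floor of 1 FPKM and none at 0 in any pool, summed to between 36.1 FPKM (ZT 17) and 55.1 (ZT 5) in chow and between 37.9 (ZT 9) and 52.8 (ZT 21) in EpSA. Genes of that list went different ways in EpSA between ZT 5 and ZT 17. The receptor gene Pdgfra was at 6.01 FPKM (ZT 5) and 3.13 (ZT 17) in chow, and at 4.55 and 4.81 in EpSA. Tcf21 was at 8.43 and 5.65 FPKM in chow, and at 8.81 and 10.5 in EpSA. Pdgfrb fell in both diets, from 9.24 to 5.49 FPKM in chow and from 8.18 to 6.64 in EpSA. So did Dpt, from 5.90 to 3.29 FPKM and from 5.91 to 4.41. The sum of 10 endothelial genes, none at 0, was between 120.1 and 164.7 FPKM in chow, highest at ZT 5, and between 116.8 (ZT 1) and 148.6 (ZT 17) in EpSA. The sum of 8 podocyte genes, none at 0, was between 62.2 and 92.7 FPKM in chow and between 75.0 and 100.2 in EpSA, and its highest pool was EpSA ZT 21, the pool in which Col4a3 was highest. Podocytes make the Col4a3, Col4a4 and Col4a5 chains. The sum of 10 smooth muscle and pericyte genes was between 50.1 and 70.3 FPKM in chow and between 50.2 and 74.8 in EpSA, and that of 4 mesangial genes between 9.14 and 13.2 and between 10.02 and 11.6. At ZT 1 in chow, where the matrix median was 0.16, the fibroblast median was 0.20 and the endothelial 0.11, but the podocyte median was -0.12 and that of smooth muscle and pericytes -0.02. Tubule markers varied too. The proximal tubule median was -0.19 at ZT 1 in chow and 0.20 at ZT 17, where the matrix median was -0.205. That of the thick ascending limb was 0.46 at ZT 1 in chow and 0.06 at ZT 17. At ZT 13 in EpSA the podocyte median was 0.10 and the matrix median -0.13. The fat tissue sum was highest at ZT 5 in both diets. The part of all these markers, and of the immune genes whose sum was high in 4 chow pools, in the profile of the matrix genes was not tested.

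**Figure D5:**
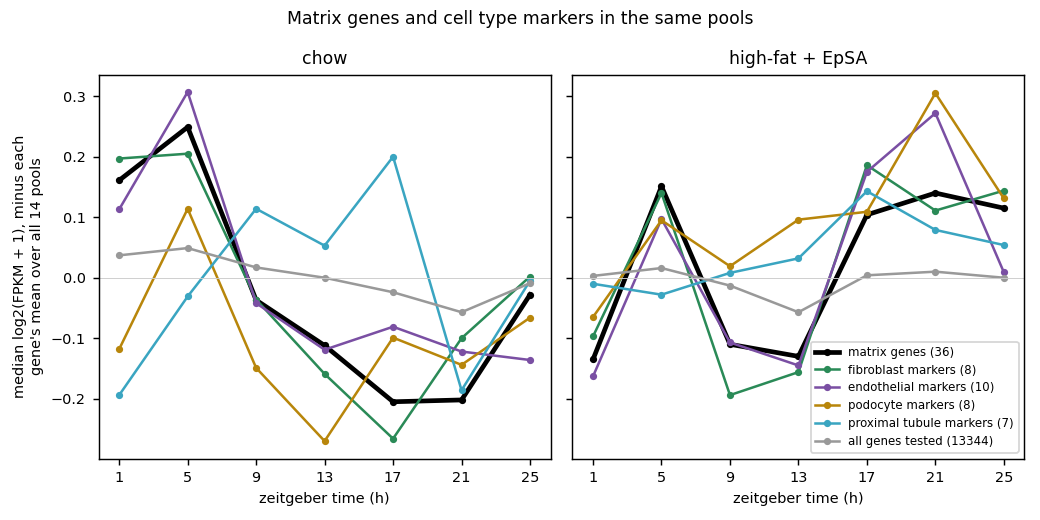
Median log2(FPKM + 1), with each gene's mean over all 14 pools subtracted, of 36 matrix genes, of 4 marker lists and of all 13344 genes against zeitgeber time in hours, in chow (left) and in the high-fat diet with EpSA (right), with the number of genes tested in brackets. In chow the matrix, fibroblast and endothelial lines are highest at ZT 5. In EpSA the fibroblast and endothelial lines are above 0 at ZT 5 and higher at ZT 17. The podocyte line is below 0 at ZT 1 in both diets. In chow the proximal tubule line is lowest at ZT 1 and highest at ZT 17. The line of all genes stays between -0.06 and 0.05.

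Genes that act on collagen before and after secretion were given as further lists. Of 20 collagen processing genes (prolyl and lysyl hydroxylases, chaperones and propeptidases), 15 were tested and none passed in any test at the adjusted threshold. P4ha1 and P4ha2, of prolyl hydroxylases, differed between diets by 0.21 ± 0.08 and 0.16 ± 0.07 with unadjusted p of 0.024 and 0.037, the 2 of 15 under 0.05, and Serpinh1, of the collagen chaperone HSP47, by 0.19 ± 0.08. Their limma adjusted p-values were between 0.20 and 0.27. Of 29 further collagens and basement membrane genes, 16 were tested and none passed. The fibrillar collagen gene Col27a1 had the largest difference among them, 0.63 ± 0.13, with a limma adjusted p of 0.074, while Tinagl1 was at -0.16 ± 0.07 and Nid2 at 0.15 ± 0.07. Col27a1 and Tinag, the latter at 0.09 ± 0.04 and named after its values were seen, had an unadjusted p under 0.05, 2 of 16. Of 22 proteases and inhibitors, 9 were tested and none passed. Plat and Plau, of the plasminogen activators, differed by 0.25 ± 0.10 (unadjusted p 0.032, the 1 of 9 under 0.05) and -0.17 ± 0.10, and Adamts5, an aggrecanase gene, by 0.14 ± 0.07. Over all genes 19.2% had an unadjusted diet p under 0.05. At an unadjusted p under 0.05 in chow rhythm there were 4 of 15, 5 of 16 and 3 of 9 of these lists and 1 of 20 of the transforming growth factor beta list, against 10.3% of all genes and 23 of 36 of the matrix genes. In EpSA the counts of these 4 lists were 2 of 15, 3 of 16, 3 of 9 and 1 of 20, against 8.72% of all genes and 2 of 36 of the matrix genes. Whether the lists differ in this from the matrix genes was not tested.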

How the data were processed

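The 39 genes and all further lists were chosen with earlier results of these data known. The authors' 2 deposited tables, 1 per diet, hold expression read here as FPKM, although no header states a unit. The last decimals fit means of 3 values, so each column was read as the mean of the 3 mice of a diet and time. The deposited rhythm statistics (p-values of JTK and meta2d, q-values of meta2d) are named per the file headers, and the deposited ratio of amplitude to baseline was not used in a test. Paired-end reads of 150 bases were made, per the labels' protocols. Aligner, genome build and annotation are not given in the sources used here, and depth is unknown.

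The 13344 genes that averaged 1 FPKM or more were fitted on log2(FPKM + 1), using the limma package (3.58.1, R 4.3.3, empirical Bayes with trend), where folds of low genes are understated. Each pool was 1 sample. Time was a factor in the diet fit, which left 6 residual degrees of freedom. The rhythm fit in 1 diet (24 h cosine and sine) left 4, and the fit of its interaction with diet left 8. P-values were adjusted by Benjamini-Hochberg over all genes, at 0.05. The error is the spread between pools and times, not between mice. The fits were tested on simulated data with changes larger than any fitted to the matrix genes, so recovery of changes of their size was not tested. Figures and tables were made with Python 3.11.15. Sequences came from RefSeq (GRCm38.p6), with 27 of 39 genes matched by symbol, and gene positions from a GENCODE annotation of GRCm38. Named genes were those called in any test and, per group, those with the highest mean, the largest diet difference and the lowest chow rhythm p, with the 3 largest differences per time and per further list, and each other member in short.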

Additional observations from a re-analysis of the deposited data

How the results depend on the processing

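Alternatives were a pseudocount of 0.1 FPKM, no filter, a mean of at least 5 FPKM, equal medians, quantile normalization, no trend in the empirical Bayes step, leaving out each time, and the authors' deposited p-values and q-values. For the diet difference, the count of called matrix genes was 0 with no filter, with equal medians and with no trend, and 0 in every leave-one-out fit, against 1 otherwise. At an unadjusted p under 0.05 it was 5 with quantile normalization, against 18.6% of all genes. Leaving out a time it was between 2 and 7, against 13.2% to 19.4% of all genes. No matrix gene was called for rhythm in chow, rhythm in EpSA or the difference of rhythm under any alternative run. In chow the count at an unadjusted p under 0.05 was 9 with a mean of at least 5 FPKM. There fewer genes were tested, 19 of the set, and 10% of all genes passed. By the deposited JTK p-value it was 2 (1.49% of all genes, with 12 more matrix genes at 0.05 itself). Leaving out a time it was between 7 and 23, against 6.21% to 11.3% of all genes. In EpSA it was 1 with no filter, with a mean of at least 5 FPKM and with equal medians. Over all genes these settings gave 7.15%, 8.98% and 8.39%. By the deposited meta2d and JTK p-values it was 0, against 9.82% and 1.12%. Leaving out a time it was between 0 and 11, against 4.24% to 13.0%. For the difference of rhythm it was 1 with a mean of at least 5 FPKM, against 3.65% of all genes. Leaving out a time it was between 1 and 12, against 2.6% to 8.63%. Where no cause is given, the cause was not tested. Of 36 genes, 18 had the same sign of their diet difference in each of the 11 to 13 alternatives run for them, and 18, none of them called, changed it in at least 1. Leaving out a time, these ran from -0.02 to 0.17 (Col1a1), -0.05 to 0.04 (Col5a1), -0.06 to 0.05 (Col6a2), -0.01 to 0.12 (Fn1), -0.16 to 0.01 (Bgn), -0.02 to 0.12 (Col4a2), -0.12 to 0.04 (Col15a1), -0.04 to 0.11 (Col18a1), -0.01 to 0.08 (Lamb2), -0.05 to 0.08 (Lamc1), -0.10 to 0.03 (Hspg2), -0.01 to 0.14 (Timp3), -0.04 to 0.04 (Lox), -0.04 to 0.09 (Loxl1), -0.08 to 0.01 (Tgfb1), -0.07 to 0.06 (Tgfbi) and -0.19 to 0.02 (Srpx2). With quantile normalization Col4a4 was at 0.01 and Lox at -0.02. No paired analysis was possible because the tables hold means over mice and carry no replicate numbers.

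The limits are those of means without values per mouse: 4 to 8 residual degrees of freedom, no depth, and 1 pool for each diet and time. A small difference at 1 time cannot be told apart from a difference between mice.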
